A study of Mus musculus with 24 samples.

Results

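The interferon response genes are 42 mouse genes taken by name from a deposited table of 54532 genes, and all 42 names were found there. They were measured in white fat of C57BL6 mice that had received an adeno-associated virus (AAV) carrying irisin, a hormone cut from the product of Fndc5, or the control protein GFP. Feeding with chow or with a high-fat diet (HFD) lasted 18 weeks, and RNA was sequenced from the inguinal depot under the skin (iWAT) and the epididymal depot of the abdomen (eWAT). The 8 groups, with 3 libraries each, were thus GFP on chow, GFP on HFD, irisin on chow and irisin on HFD, in either depot. Every group carried a viral vector, so levels without one are not shown by these data. The labels name neither the vector's promoter nor the tissue it entered. They also leave unsaid if each library is its own mouse, and the p-values cover no more than the spread among the libraries, which may be technical.

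Interferons are secreted proteins that cells release when they sense foreign nucleic acid, and their receptors signal through JAK kinases to STAT proteins. In the type I pathway STAT2 and IRF9 act at the interferon-stimulated response element (ISRE), built of GAAA blocks, while another element, called GAS, serves the response to interferon gamma. The genes switched on in this way encode sensors, enzymes and GTPases that hinder viruses and other microbes. In fat, macrophages, stromal cells and adipocytes are all able to switch such genes on.

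By role, the 42 genes were sorted into 3 regulators (Irf7, Irf9, Stat2), 4 sensors of nucleic acid (Ifih1, Ddx58, Dhx58, Zbp1), 4 IFIT genes (Ifit1, Ifit2, Ifit3, Ifit3b), 5 oligoadenylate synthetase (OAS) genes (Oas1a, Oas2, Oas3, Oasl1, Oasl2) and 2 Mx genes (Mx1, Mx2). The ISG15 system had 3 (Isg15, Usp18, Herc6), and 10 were other antiviral effectors (Rsad2, Cmpk2, Bst2, Ifi44, Ifi27l2a, Ifi35, Rtp4, Xaf1, Samd9l, Trim30a). The remainder were 3 genes of the PARP and DTX3L group (Parp9, Parp14, Dtx3l), 6 interferon-inducible GTPases (Gbp2, Gbp3, Gbp5, Gbp7, Igtp, Irgm1) and 2 genes of the IFI200 family (Ifi204, Ifi205). Mx2 is listed as a polymorphic pseudogene and the other members as protein coding.

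Promoter sequences are shown because the ISRE is the element through which these genes are known to be switched on. RefSeq windows of 300 bases (build GRCm38.p6, 250 before to 50 after the start of transcription) matched 31 of the 42 members, in 35 windows. The ISRE core was searched on both strands as GAAA, any 2 bases and GAAA again, and GAS as TTCNNNGAA, a palindrome. At least 1 ISRE core was found in 19 of 31 members (61.3%), in 57.1% of the members' windows and in 3.44% of all 32851 windows. GAS matches were found in 7 of 31 members, in 20% of their windows and in 8.30% of all windows. Of the 30 ISRE matches, 21 began within 150 bases before the start, and 10 members had at least 2, some of them overlapping. The 12 matched members with no ISRE core in the window were Irf7, Irf9, Ifit2, Ifi44, Ifi35, Oasl1, Oasl2, Xaf1, Cmpk2, Dtx3l, Herc6 and Samd9l, which says only that these letters are not there.

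The stretches before the start of transcription follow for 5 genes with the core, chosen to span 5 roles, and for Irf7 and Oasl1, which lack it in the window although the diet results below turn on them. They run 5′ to 3′ on the gene's strand, and capitals mark ISRE cores on either strand. Isg15 holds 3 overlapping cores between -78 and -57 bases from the start, and Oas1a holds 2 between -20 and -5. Rsad2 has 1 core from -120 and Igtp 1 from -34, and Ifit3 has 2, from -156 and from -122. In order, the stretches lie at chr4:156200819-156201068 (minus strand), chr5:120907526-120907775 (minus strand), chr12:26456453-26456702 (minus strand), chr19:34583279-34583528 (plus strand), chr11:58199306-58199555 (plus strand), chr7:141266482-141266674 (minus strand) and chr5:114922990-114923239 (plus strand). That of Irf7 is shorter because 57 bases that the deposited table places inside the gene were left out.
Isg15: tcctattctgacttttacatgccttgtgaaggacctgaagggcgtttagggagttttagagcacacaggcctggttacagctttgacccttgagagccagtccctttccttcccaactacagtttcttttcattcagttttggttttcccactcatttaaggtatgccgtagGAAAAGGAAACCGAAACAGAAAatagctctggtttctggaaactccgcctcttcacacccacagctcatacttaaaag
Oas1a: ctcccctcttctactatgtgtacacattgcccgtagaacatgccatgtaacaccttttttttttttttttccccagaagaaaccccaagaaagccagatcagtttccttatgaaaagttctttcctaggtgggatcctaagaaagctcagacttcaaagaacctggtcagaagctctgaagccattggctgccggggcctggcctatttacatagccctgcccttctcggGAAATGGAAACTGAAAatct
Rsad2: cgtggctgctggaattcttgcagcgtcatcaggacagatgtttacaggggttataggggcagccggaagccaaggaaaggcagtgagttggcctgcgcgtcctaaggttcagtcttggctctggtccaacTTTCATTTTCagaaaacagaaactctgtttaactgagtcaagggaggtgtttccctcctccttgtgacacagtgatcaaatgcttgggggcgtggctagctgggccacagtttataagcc
Ifit3: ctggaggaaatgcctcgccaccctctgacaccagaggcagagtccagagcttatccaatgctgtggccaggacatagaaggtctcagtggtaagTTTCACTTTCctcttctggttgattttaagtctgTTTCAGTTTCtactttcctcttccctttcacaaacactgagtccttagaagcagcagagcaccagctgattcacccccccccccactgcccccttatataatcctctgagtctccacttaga
Igtp: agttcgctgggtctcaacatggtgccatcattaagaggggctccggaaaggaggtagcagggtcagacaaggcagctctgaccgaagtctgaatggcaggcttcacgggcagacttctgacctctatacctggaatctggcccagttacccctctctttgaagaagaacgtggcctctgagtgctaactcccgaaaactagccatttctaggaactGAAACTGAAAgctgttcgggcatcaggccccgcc
Irf7: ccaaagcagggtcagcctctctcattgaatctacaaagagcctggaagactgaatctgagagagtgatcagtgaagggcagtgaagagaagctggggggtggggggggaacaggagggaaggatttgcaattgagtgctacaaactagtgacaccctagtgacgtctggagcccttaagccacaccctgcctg
Oasl1: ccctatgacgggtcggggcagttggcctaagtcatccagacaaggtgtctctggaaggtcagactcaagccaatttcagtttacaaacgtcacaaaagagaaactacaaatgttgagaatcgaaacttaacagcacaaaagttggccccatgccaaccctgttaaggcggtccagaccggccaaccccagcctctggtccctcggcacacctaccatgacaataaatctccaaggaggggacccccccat

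**Figure D1:**
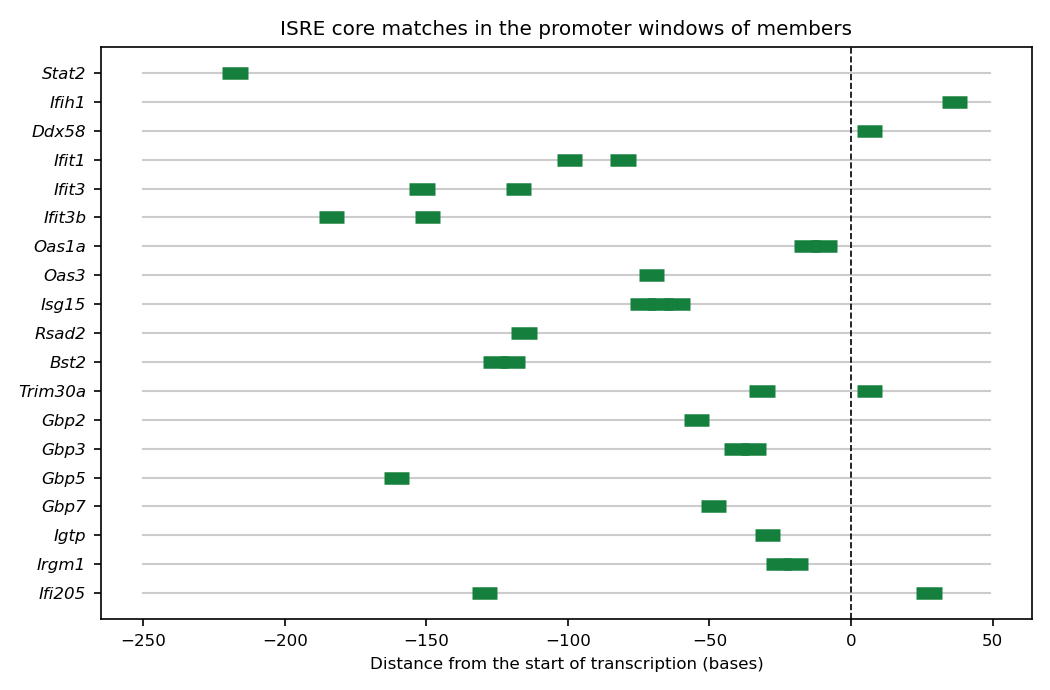
Positions of ISRE core matches (green bars) in the RefSeq promoter windows of the 19 members that hold one. The horizontal axis gives the distance in bases from the start of transcription (dashed line), grey lines mark the window searched, and 21 of 30 matches begin within 150 bases before the start.

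Levels are in FPKM (reads per gene scaled for gene length and library depth), as deposited. Gene reads, recovered from the FPKM steps, came to 14.1 to 19.7 M per library, and 1 FPKM in a gene of 2000 bases stood for 26.7 to 39.3 reads. The depot labels matched their marker genes: Tbx15, a transcription factor of subcutaneous fat, was at 2.88 to 14.2 FPKM in iWAT and at most 0.0896 in eWAT, and the visceral mesothelial factor Wt1 at 1.20 to 11.9 in eWAT and at most 0.0204 in iWAT. The adipocyte hormone gene Adipoq was at 616 to 2284 FPKM throughout. Fndc5, whose product gives irisin, ranged from 0.131 to 4.94 FPKM in eWAT and from 0.158 to 3.91 in iWAT. It was not called between vectors. The irisin libraries all lay above the GFP libraries in eWAT on chow and in iWAT on HFD, and the vectors overlapped in the other 2 cases. Of the 24 libraries, 4 were rich in transcripts of other tissues: skeletal muscle in iWAT irisin chow 3 (summed markers 4117 FPKM), B cells in iWAT GFP HFD 1 and eWAT GFP chow 1 (1951 and 2491 FPKM), and epididymis in eWAT GFP HFD 3 (1296 FPKM). Muscle markers summed to 85.8 and 279 FPKM in the remaining iWAT irisin chow libraries, which stay in the fits without those 4. No other iWAT group passed 35.6 FPKM. In whole tissue, fewer cells of a type and less RNA per cell cannot be told apart.

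Most members were expressed at a few FPKM. The highest was Ifi27l2a, a small interferon-induced membrane protein, with group means of 1098 to 4640 FPKM, followed by Bst2 (54.7 to 88.4), the tetherin that holds budding virions at the cell surface, and the guanylate-binding GTPase Gbp2 (25.8 to 36.1). Oas3 had the lowest group mean of all, with means of 0.125 to 1.31 FPKM. The interferons themselves were almost absent: of 13 interferon genes listed, 10 (Ifnb1, the Ifna genes, Ifnl2 and Ifnl3) were at 0 in all 24 libraries, and Ifng reached at most 0.226 FPKM and was above 0 in 16. None of the 13 passed the filter on low values, while all 42 members passed it in both depots.

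**Figure D2:**
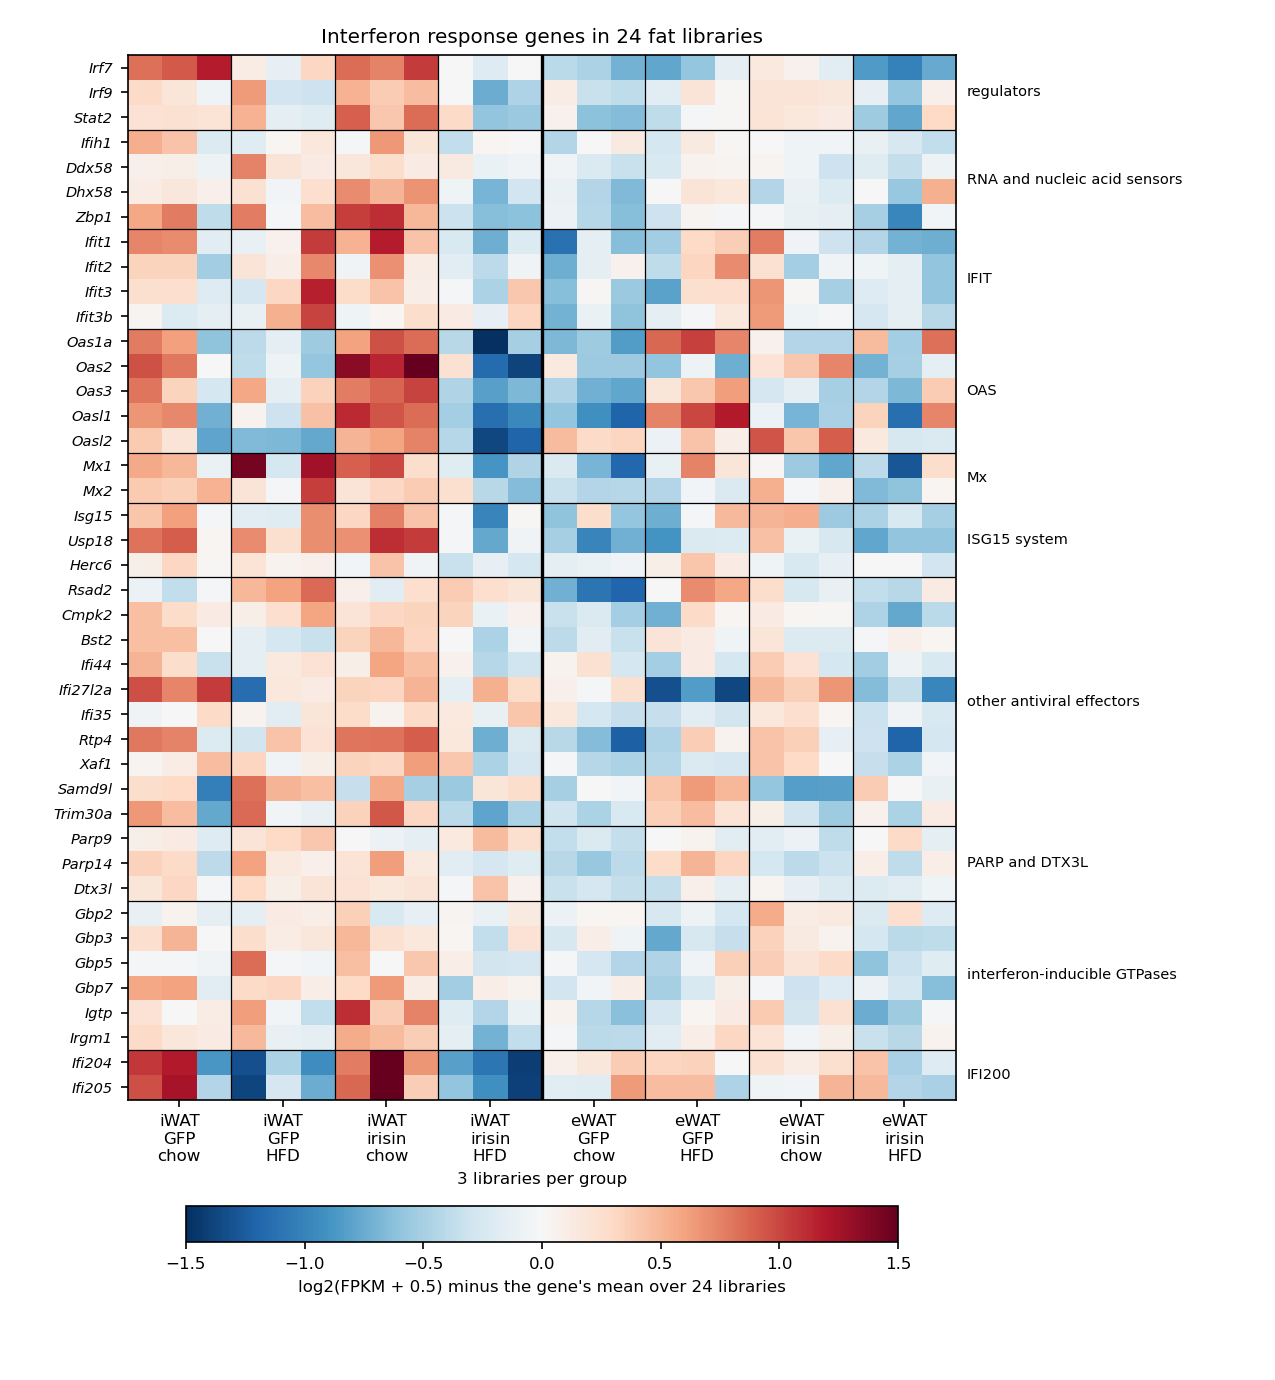
Heatmap of the 42 members (rows, by role) in the 24 libraries (columns, 3 per group). Colour gives log2(FPKM + 0.5) minus the gene's mean over the 24 libraries, clipped at 1.5 in either direction. Irf7 is highest in the chow libraries of iWAT, and the OAS and IFI200 genes are high in iWAT irisin chow and low in iWAT irisin HFD.

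Among the 4 comparisons of HFD with chow, the falls in iWAT with irisin stood furthest above the share over all genes (35.7% of members, beside 4.19%). In the other comparisons the shares called were nearer to those over all genes. With GFP in eWAT, 8 of 42 members rose on HFD and 1 fell, where 14.7% of all genes tested rose and 11.8% fell. The 8 include Oas3, which passed the filter on low values in eWAT through HFD libraries alone. With irisin in eWAT, 1 rose and 5 fell, beside 9.47% and 7.93% of all genes. In iWAT with GFP, 1 rose and 1 fell, beside 1.44% and 0.924%. In iWAT with irisin, none rose and 15 fell, beside 4.82% and 4.19% of all genes. A gene is called, and said to rise or fall, where limma's adjusted p over all genes tested was under 0.05. Fold changes are log2 differences ± SE of log2(FPKM + 0.5), where the added 0.5 shrinks the fold of weakly expressed genes. Of the 42 fold changes, 34 were positive with GFP in eWAT (median 0.27), 10 with irisin in eWAT (median -0.34), 16 with GFP in iWAT (median -0.04) and 5 with irisin in iWAT (median -0.58), and the median over all genes tested lay between -0.02 and 0.01 in these 4 comparisons. Members can move together within a library, so counts of signs, here and below, are not separate results for each gene. In all, 24 members were called in at least 1 of the 16 comparisons made, and 18 in none.

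The count of 15 in iWAT with irisin depended on single libraries: it was 6 without irisin HFD 2, 2 without irisin HFD 3, 7 without irisin chow 1, 7 without irisin chow 2 and 5 without irisin chow 3. That of 6 in eWAT with irisin was 3 without irisin chow 3, and that of 2 in iWAT with GFP was 0 without GFP HFD 2 or GFP chow 1, 1 without GFP HFD 3 or GFP chow 2 and 4 without GFP chow 3. Without the 4 libraries rich in other tissues, 5 and 8 members were called in eWAT with GFP and with irisin. In iWAT the counts were 2 with GFP and 12 with irisin. The share of all genes called in these smaller fits is not given here, so the shifts may not be particular to the members. Array weights called 26 in iWAT with irisin and 27 in eWAT with irisin, beside 46.6% and 60.3% of all genes, and a fit with no filter called 8 and 3, beside 2.86% and 6.31%.

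**Figure D3:**
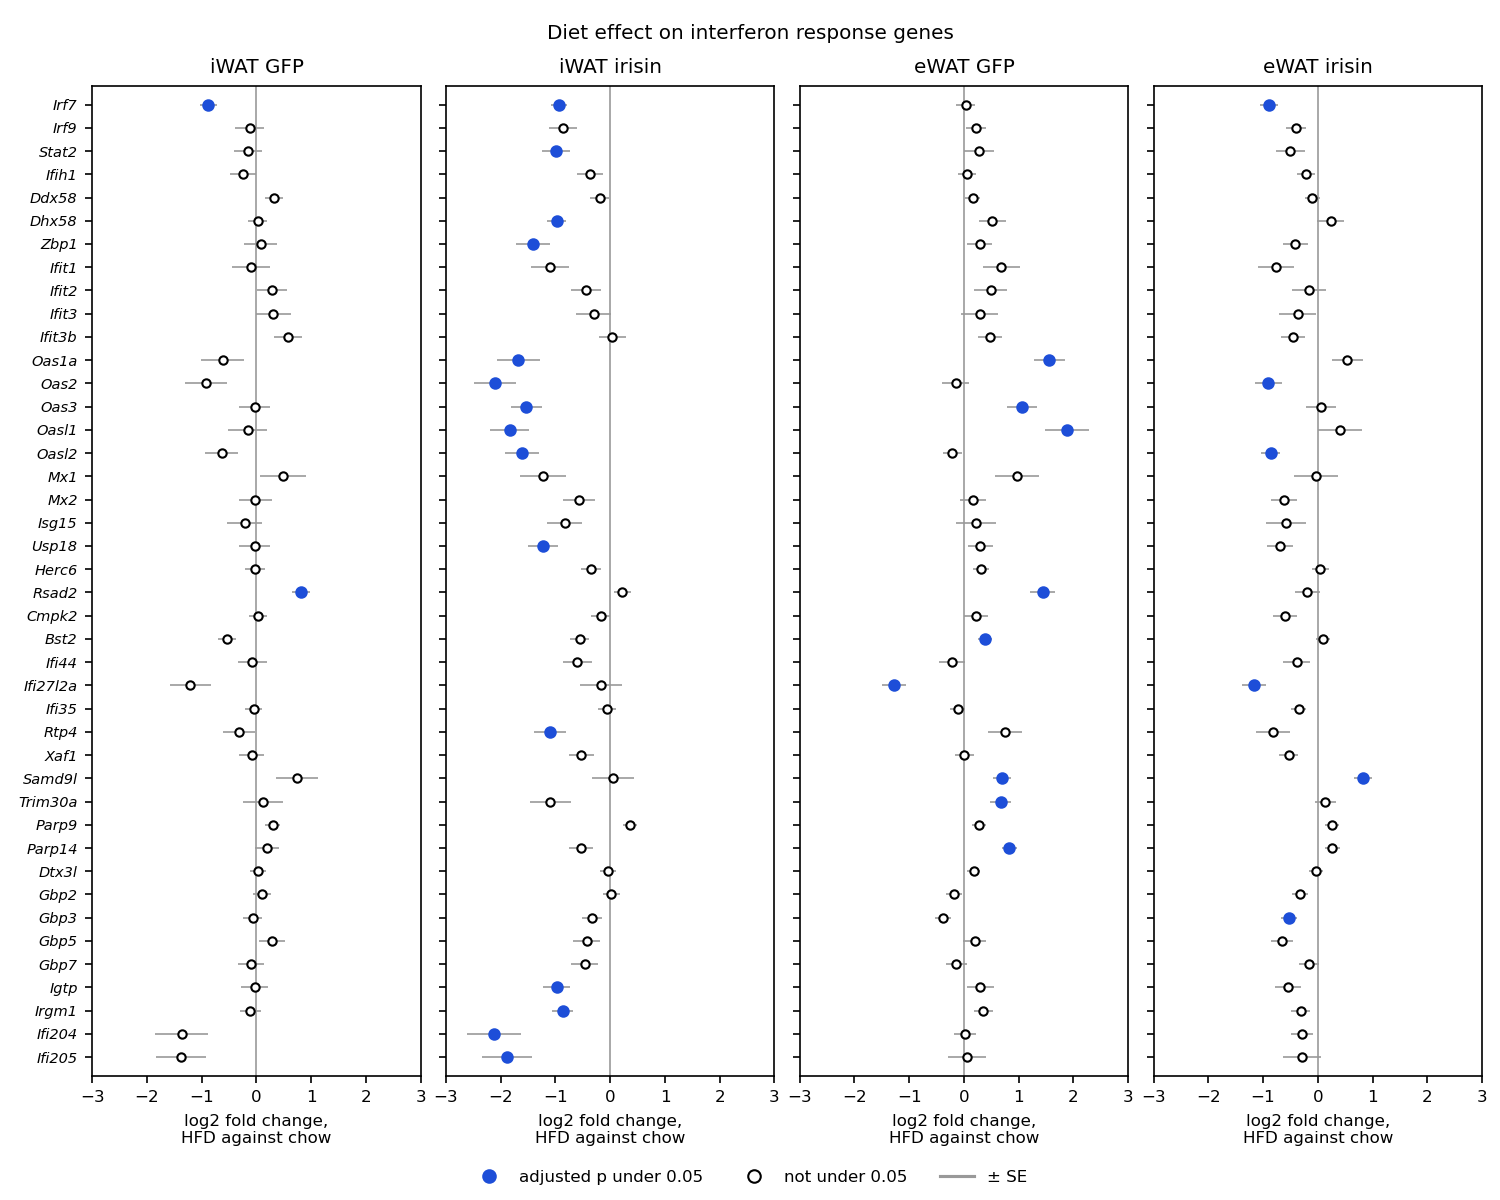
Log2 fold change of each of the 42 members, HFD against chow, in the 4 combinations of depot and vector. Points are estimates with their SE (grey), and filled points have a limma adjusted p under 0.05: 2, 15, 9 and 6 from left to right.

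Irf7, the master regulator that amplifies the interferon response (chr7:141262706-141266481, minus strand; positions are as deposited and equal to GRCm38), fell on HFD in 3 of the 4 comparisons. In iWAT, Irf7 was at 16.1, 17.2 and 20.7 FPKM with GFP on chow, 9.62, 8.07 and 11.1 with GFP on HFD, 16.2, 15.2 and 18.8 with irisin on chow and 8.82, 7.70 and 8.90 with irisin on HFD. In eWAT, Irf7 was at 6.59, 6.23 and 5.23 FPKM with GFP on chow, 4.95, 5.76 and 8.01 with GFP on HFD, 9.88, 9.31 and 7.90 with irisin on chow and 4.70, 4.13 and 5.05 with irisin on HFD. Chow and HFD libraries did not overlap in iWAT with either vector or in eWAT with irisin, and overlapped in eWAT with GFP. The fall was -0.88 ± 0.15 with GFP in iWAT (limma adjusted p = 0.0183), -0.94 ± 0.15 with irisin in iWAT (adjusted p = 0.00715) and -0.89 ± 0.17 with irisin in eWAT (adjusted p = 0.00744). Irf7 shares genomic sequence with Phrf1 on the other strand, and the sources used here do not say if counting used strand.

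Stat2 and Irf9 encode proteins that act at the ISRE. In iWAT, Stat2 was at 8.68, 8.78 and 8.59 FPKM with GFP on chow, 10.8, 6.61 and 6.45 with GFP on HFD, 14.2, 9.93 and 13.6 with irisin on chow and 9.13, 4.76 and 4.87 with irisin on HFD. In eWAT, Stat2 was at 7.77, 4.66 and 4.53 FPKM with GFP on chow, 5.58, 7.28 and 7.51 with GFP on HFD, 8.60, 8.31 and 8.14 with irisin on chow and 4.96, 4.12 and 9.18 with irisin on HFD. All 3 irisin HFD libraries of iWAT lay below the 3 irisin chow libraries, and Stat2 was called lower there. In the other 3 diet comparisons the groups overlapped. Irf9 was called in none of the 16 comparisons.

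Among the sensors, Dhx58 and Zbp1 fell in iWAT with irisin, and none of the 4 was called in the other diet comparisons. Dhx58 encodes LGP2, which tunes the RNA sensors of the RIG-I family, and Zbp1 a sensor of nucleic acids in the left-handed Z form. In iWAT, Dhx58 was at 3.19, 3.36 and 3.12 FPKM with GFP on chow, 3.51, 2.82 and 3.56 with GFP on HFD, 5.08, 4.38 and 4.94 with irisin on chow and 2.78, 1.603 and 2.32 with irisin on HFD. In eWAT, Dhx58 was at 2.70, 2.03 and 1.66 FPKM with GFP on chow, 2.92, 3.41 and 3.33 with GFP on HFD, 2.02, 2.71 and 2.46 with irisin on chow and 2.93, 1.80 and 4.46 with irisin on HFD. In iWAT its irisin chow libraries were the highest and its irisin HFD libraries the lowest, a difference of -0.98 ± 0.17, adjusted p = 0.0102. With GFP in eWAT every HFD library lay above the chow libraries, and no call was made. In iWAT, Zbp1 was at 4.95, 5.73 and 2.29 FPKM with GFP on chow, 5.67, 3.09 and 4.51 with GFP on HFD, 6.96, 7.36 and 4.62 with irisin on chow and 2.41, 1.83 and 1.88 with irisin on HFD. In eWAT, Zbp1 was at 2.92, 2.21 and 1.83 FPKM with GFP on chow, 2.43, 3.23 and 3.07 with GFP on HFD, 3.06, 2.86 and 2.79 with irisin on chow and 2.08, 1.34 and 3.02 with irisin on HFD. The irisin groups of iWAT did not overlap, while the GFP groups of iWAT did. Ifih1 encodes MDA5, a sensor of long double-stranded RNA, and was called nowhere. In iWAT, Ifih1 was at 5.44, 5.01 and 3.04 FPKM with GFP on chow, 3.11, 3.68 and 4.04 with GFP on HFD, 3.49, 5.91 and 4.12 with irisin on chow and 2.67, 3.67 and 3.61 with irisin on HFD. In eWAT, Ifih1 was at 2.50, 3.59 and 3.9996 FPKM with GFP on chow, 2.89, 4.005 and 3.63 with GFP on HFD, 3.59, 3.45 and 3.46 with irisin on chow and 3.29, 2.96 and 2.66 with irisin on HFD. Its chow and HFD groups overlapped except with irisin in eWAT, where HFD lay below chow and was not called.

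The OAS group had calls in 3 of the 4 diet comparisons. Oas1a, Oas2 and Oas3 encode synthetases that turn on the RNA-cutting enzyme RNase L, and Oasl1 and Oasl2 encode related proteins. All 5 fell on HFD in iWAT with irisin, where 4.19% of all genes fell. In eWAT with GFP 3 of the 5 rose instead (Oas1a, Oasl1 and Oas3), beside 14.7% of all genes. In eWAT with irisin 2 of the 5 fell (Oas2 and Oasl2), beside 7.93% of all genes. In eWAT, Oas3 reached 0.5 FPKM only on HFD, in the GFP libraries (0.603 to 1.005) and in irisin HFD 3 (0.776). On chow in eWAT it was at most 0.382 FPKM. It thus passed the filter there through the group where it is high, and its call carries little weight. With GFP in iWAT none of the 5 was called.

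Oas1a lies at chr5:120896256-120907521 and Oasl1 at chr5:114923240-114937915. In iWAT, Oas1a was at 10.3, 9.10 and 3.63 FPKM with GFP on chow, 4.29, 5.16 and 3.84 with GFP on HFD, 9.03, 11.6 and 10.8 with irisin on chow and 4.22, 1.39 and 3.93 with irisin on HFD. In eWAT, Oas1a was at 3.43, 3.83 and 3.01 FPKM with GFP on chow, 10.9, 12.3 and 9.91 with GFP on HFD, 6.08, 4.12 and 4.14 with irisin on chow and 8.24, 3.93 and 10.6 with irisin on HFD. With GFP in eWAT every HFD library stood well above every chow library, a rise of 1.56 ± 0.28, adjusted p = 0.00347, and with irisin in iWAT every HFD library lay below every chow library. Oas1a shares 57.6% of its 50-base windows with transcripts of other genes, chiefly Oas1g and Oas1b, so its level may hold reads of those genes and is uncertain.

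In iWAT, Oasl1 was at 3.24, 3.40 and 0.929 FPKM with GFP on chow, 1.95, 1.41 and 2.70 with GFP on HFD, 4.63, 4.04 and 3.73 with irisin on chow and 1.16, 0.575 and 0.705 with irisin on HFD. In eWAT, Oasl1 was at 1.06, 0.747 and 0.527 FPKM with GFP on chow, 3.45, 4.24 and 4.87 with GFP on HFD, 1.73, 0.952 and 1.19 with irisin on chow and 2.48, 0.578 and 3.42 with irisin on HFD. Its rise with GFP in eWAT was 1.88 ± 0.40, adjusted p = 0.00667, with no overlap of the groups. The HFD libraries with irisin in eWAT were spread from below the chow group to above it. In iWAT, Oasl2 was at 6.97, 6.05 and 2.81 FPKM with GFP on chow, 3.11, 3.06 and 2.84 with GFP on HFD, 7.60, 8.11 and 9.07 with irisin on chow and 3.75, 1.72 and 1.98 with irisin on HFD. In eWAT, Oasl2 was at 7.40, 6.44 and 6.62 FPKM with GFP on chow, 4.88, 7.16 and 5.62 with GFP on HFD, 10.5, 7.11 and 10.2 with irisin on chow and 5.82, 4.33 and 4.40 with irisin on HFD. Both irisin groups separated by diet, in iWAT by -1.61 ± 0.30, adjusted p = 0.0122, and in eWAT by -0.86 ± 0.18, adjusted p = 0.0114.

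In iWAT, Oas2 was at 8.99, 7.95 and 4.36 FPKM with GFP on chow, 3.24, 4.13 and 2.76 with GFP on HFD, 11.9, 10.2 and 13.3 with irisin on chow and 5.21, 1.70 and 1.36 with irisin on HFD. In eWAT, Oas2 was at 4.92, 2.84 and 2.84 FPKM with GFP on chow, 2.74, 4.13 and 2.44 with GFP on HFD, 5.15, 5.94 and 7.63 with irisin on chow and 2.48, 2.95 and 3.90 with irisin on HFD. HFD lay below chow with no overlap in iWAT with GFP, where no call was made, and in both irisin comparisons, in iWAT by -2.10 ± 0.38, adjusted p = 0.0109, and in eWAT by -0.90 ± 0.25, adjusted p = 0.0311. Oas3 fell in iWAT with irisin from 1.31 ± 0.151 to 0.126 ± 0.0819 FPKM (SD, n = 3), by -1.53 ± 0.29, adjusted p = 0.0117.

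**Figure D4:**
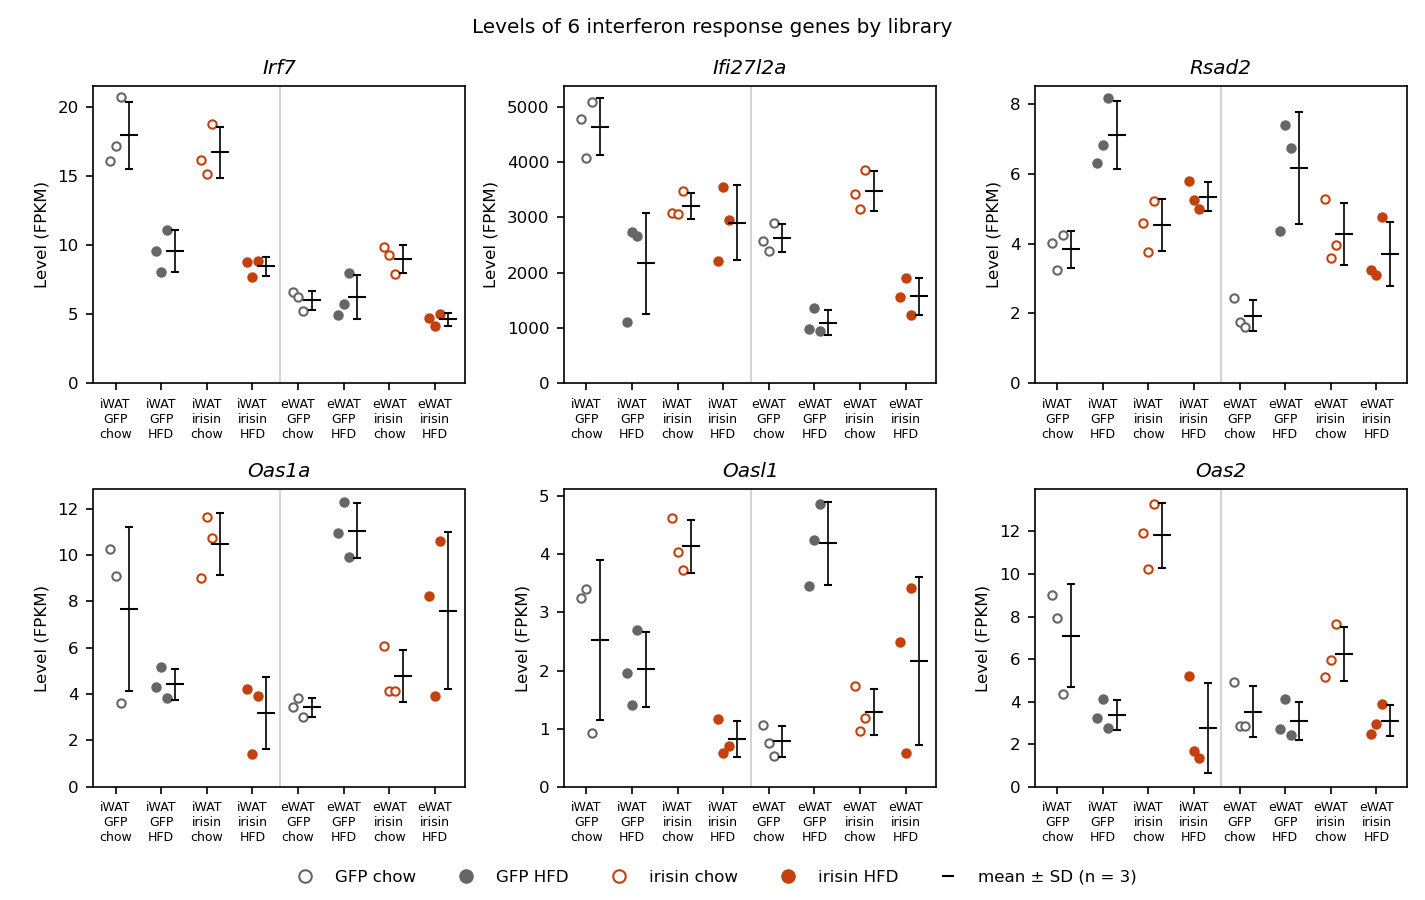
Levels of Irf7, Ifi27l2a, Rsad2, Oas1a, Oasl1 and Oas2 in FPKM in each library (points; open for chow, filled for HFD) with mean ± SD of the 3 libraries of a group (black). Irf7 is lower on HFD in iWAT, where all chow libraries lie above 15 FPKM and all HFD libraries below 12, and Oasl1 rises with GFP in eWAT from 0.779 to 4.19 FPKM.

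The IFIT proteins hold viral RNA that lacks the host's cap marks. None of the 4 genes was called in any of the 16 comparisons. In iWAT, Ifit3 was at 14.3, 14.5 and 10.5 FPKM with GFP on chow, 10.03, 15.1 and 27.7 with GFP on HFD, 14.7, 16.5 and 13.0 with irisin on chow and 11.9, 8.504 and 16.1 with irisin on HFD. In eWAT, Ifit3 was at 7.56, 12.2 and 8.02 FPKM with GFP on chow, 6.70, 14.3 and 14.4 with GFP on HFD, 19.3, 12.3 and 8.38 with irisin on chow and 10.5, 10.9 and 7.82 with irisin on HFD. The groups overlapped in every diet comparison. Ifit3 and Ifit3b share 51.2% and 45.0% of their windows with other genes, chiefly with each other, and their levels are uncertain.

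The Mx genes encode dynamin-like antiviral GTPases, and C57BL/6 mice are known to carry a defective Mx1. Neither gene was called in any comparison. In iWAT, Mx1 was at 2.13, 2.0003 and 1.15 FPKM with GFP on chow, 4.28, 0.971 and 3.73 with GFP on HFD, 2.79, 3.03 and 1.62 with irisin on chow and 1.06, 0.455 and 0.795 with irisin on HFD. In eWAT, Mx1 was at 1.03, 0.591 and 0.284 FPKM with GFP on chow, 1.14, 2.46 and 1.51 with GFP on HFD, 1.30, 0.713 and 0.528 with irisin on chow and 0.848, 0.228 and 1.62 with irisin on HFD. HFD libraries with GFP in iWAT spread widely on either side of the chow group. With irisin in iWAT, the HFD group lay wholly below the chow group, a difference that was not called. With GFP in eWAT the HFD group lay wholly above the chow group, likewise with no call.

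Isg15 is a ubiquitin-like tag for proteins, and Usp18 removes it and restrains the type I receptor. In iWAT, Isg15 was at 10.6, 12.2 and 7.65 FPKM with GFP on chow, 6.93, 6.82 and 13.0 with GFP on HFD, 9.81, 13.5 and 10.7 with irisin on chow and 7.67, 3.67 and 7.89 with irisin on HFD. In eWAT, Isg15 was at 4.97, 9.44 and 5.06 FPKM with GFP on chow, 4.51, 7.66 and 11.2 with GFP on HFD, 11.4, 11.6 and 5.20 with irisin on chow and 5.48, 6.56 and 5.40 with irisin on HFD. With irisin in iWAT its HFD libraries lay below the chow libraries, but no comparison called Isg15 or Herc6, the mouse ligase of the tag. In iWAT, Usp18 was at 4.88, 5.24 and 2.61 FPKM with GFP on chow, 4.49, 3.12 and 4.45 with GFP on HFD, 4.43, 6.07 and 5.80 with irisin on chow and 2.52, 1.29 and 2.46 with irisin on HFD. In eWAT, Usp18 was at 1.65, 1.03 and 1.35 FPKM with GFP on chow, 1.13, 2.14 and 2.15 with GFP on HFD, 3.63, 2.36 and 2.08 with irisin on chow and 1.28, 1.52 and 1.53 with irisin on HFD. Usp18 fell on HFD in iWAT with irisin, where the groups did not overlap, and was not called in the other 3 diet comparisons. In eWAT with irisin its HFD libraries also lay below the chow libraries.

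Rsad2 (chr12:26442746-26456452) encodes viperin, an enzyme that makes a chain-ending nucleotide against viral RNA synthesis, and it was the member that rose with GFP in both depots. In iWAT, Rsad2 was at 4.03, 3.23 and 4.24 FPKM with GFP on chow, 6.32, 6.84 and 8.18 with GFP on HFD, 4.59, 3.77 and 5.23 with irisin on chow and 5.80, 5.24 and 4.99 with irisin on HFD. In eWAT, Rsad2 was at 2.43, 1.76 and 1.61 FPKM with GFP on chow, 4.35, 7.41 and 6.74 with GFP on HFD, 5.27, 3.57 and 3.96 with irisin on chow and 3.24, 3.10 and 4.75 with irisin on HFD. The GFP groups did not overlap in either depot, with a rise of 1.44 ± 0.23, adjusted p = 0.00204 in eWAT, and of 0.81 ± 0.16, adjusted p = 0.0268 in iWAT. With irisin the groups overlapped in both depots.

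Ifi27l2a moved the other way from most members called in eWAT with GFP. In iWAT, Ifi27l2a was at 4778, 4064 and 5077 FPKM with GFP on chow, 1105, 2730 and 2666 with GFP on HFD, 3083, 3058 and 3482 with irisin on chow and 2207, 3553 and 2954 with irisin on HFD. In eWAT, Ifi27l2a was at 2578, 2396 and 2898 FPKM with GFP on chow, 979, 1368 and 946 with GFP on HFD, 3416, 3145 and 3856 with irisin on chow and 1563, 1905 and 1239 with irisin on HFD. HFD libraries of eWAT were below chow libraries with either vector, by -1.27 ± 0.22, adjusted p = 0.00275 with GFP, and by -1.16 ± 0.22, adjusted p = 0.00766 with irisin. With GFP in iWAT the groups did not overlap either, but the difference was not called.

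In iWAT, Bst2 was at 92.2, 92.2 and 67.4 FPKM with GFP on chow, 61.4, 56.3 and 53.6 with GFP on HFD, 85.0, 95.8 and 84.5 with irisin on chow and 67.3, 48.2 and 65.8 with irisin on HFD. In eWAT, Bst2 was at 51.2, 59.7 and 53.3 FPKM with GFP on chow, 77.0, 73.7 and 64.6 with GFP on HFD, 76.6, 58.7 and 58.4 with irisin on chow and 66.1, 70.9 and 68.6 with irisin on HFD. It rose with GFP in eWAT and was called in no other diet comparison, although HFD libraries lay below chow libraries in iWAT with either vector. Samd9l, a relative of an antiviral factor that blocks translation, rose in eWAT with either vector, from 7.95 ± 1.54 to 13.0 ± 1.01 FPKM with GFP (0.69 ± 0.17, adjusted p = 0.0115) and from 5.18 ± 0.554 to 9.67 ± 1.85 FPKM with irisin (0.83 ± 0.17, adjusted p = 0.00920). Trim30a rose with GFP in eWAT and Rtp4, a chaperone of receptors, fell with irisin in iWAT. Cmpk2 was called in no diet comparison, and Ifi44, Ifi35 and Xaf1 in none of the 16.

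Parp14, an ADP-ribosyltransferase, was the member of its group called in a diet comparison. In iWAT, Parp14 was at 8.97, 8.59 and 5.16 FPKM with GFP on chow, 10.7, 7.72 and 7.32 with GFP on HFD, 8.08, 10.9 and 7.73 with irisin on chow and 6.10, 5.72 and 6.05 with irisin on HFD. In eWAT, Parp14 was at 5.07, 4.49 and 5.14 FPKM with GFP on chow, 8.47, 10.03 and 8.75 with GFP on HFD, 5.70, 5.16 and 5.45 with irisin on chow and 7.45, 5.21 and 7.47 with irisin on HFD. The GFP libraries of eWAT separated by diet, with a rise of 0.83 ± 0.14, adjusted p = 0.00251. With irisin in iWAT the HFD libraries lay below the chow libraries, and no call was made. Parp9 and Dtx3l overlap each other on opposite strands, and neither was called in a diet comparison.

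The guanylate-binding proteins and immunity-related GTPases attack the vacuoles of intracellular microbes and respond strongly to interferon gamma. In iWAT, Gbp2 was at 27.2, 30.6 and 26.8 FPKM with GFP on chow, 26.8, 32.2 and 31.7 with GFP on HFD, 37.9, 25.2 and 27.0 with irisin on chow and 30.4, 27.5 and 32.4 with irisin on HFD. In eWAT, Gbp2 was at 27.6, 30.0 and 30.1 FPKM with GFP on chow, 24.9, 27.9 and 24.5 with GFP on HFD, 43.5, 32.0 and 32.7 with irisin on chow and 25.3, 35.1 and 25.7 with irisin on HFD. Gbp2 was called in none of the 16 comparisons, as were Gbp5 and Gbp7. Gbp3 fell with irisin in eWAT, from 10.9 ± 1.17 to 7.36 ± 0.388 FPKM (-0.53 ± 0.15, adjusted p = 0.0352). In iWAT, Igtp was at 12.7, 10.9 and 11.8 FPKM with GFP on chow, 17.1, 10.6 and 8.32 with GFP on HFD, 24.04, 14.2 and 18.6 with irisin on chow and 9.51, 7.93 and 10.1 with irisin on HFD. In eWAT, Igtp was at 11.4, 7.95 and 6.86 FPKM with GFP on chow, 9.03, 11.1 and 11.9 with GFP on HFD, 14.5, 8.92 and 12.8 with irisin on chow and 6.33, 7.35 and 10.8 with irisin on HFD. Igtp and Irgm1 fell on HFD in iWAT with irisin, and the 2 diet groups of Igtp overlapped in the other 3 comparisons. Igtp shares 12.3% of its windows with Irgm2, which also overlaps it.

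Ifi204 and Ifi205 belong to the family of DNA-binding proteins that includes DNA sensors. In iWAT, Ifi204 was at 28.0, 30.6 and 6.91 FPKM with GFP on chow, 4.94, 9.32 and 6.65 with GFP on HFD, 22.6, 41.4 and 21.01 with irisin on chow and 7.23, 5.94 and 4.601 with irisin on HFD. In eWAT, Ifi204 was at 13.9, 14.8 and 17.2 FPKM with GFP on chow, 16.5, 16.8 and 13.1 with GFP on HFD, 15.4, 14.2 and 15.6 with irisin on chow and 17.8, 9.18 and 11.4 with irisin on HFD. In iWAT, Ifi205 was at 20.3, 24.6 and 7.37 FPKM with GFP on chow, 3.59, 8.44 and 5.88 with GFP on HFD, 18.9, 30.8 and 13.2 with irisin on chow and 6.59, 5.15 and 3.55 with irisin on HFD. In eWAT, Ifi205 was at 8.94, 8.91 and 16.1 FPKM with GFP on chow, 14.2, 14.2 and 7.20 with GFP on HFD, 9.68, 9.86 and 14.7 with irisin on chow and 14.5, 7.33 and 7.10 with irisin on HFD. Both genes were lower on HFD in iWAT with irisin, with no overlap, and both were called there. With GFP in iWAT, library GFP chow 3 stood apart from the other chow libraries at 6.91 and 7.37 FPKM, near the HFD level, and no call was made. Ifi204 shares 30.2% of its windows with other genes, mainly Ifi211 and Mndal, and is uncertain. The 10 called members of iWAT with irisin other than Irf7, Dhx58, Oas2, Oas3 and Oasl2 had fold changes from -0.87 (Irgm1) to -2.12 (Ifi204).

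Other genes of the pathway were read from lists of receptors and JAK-STAT proteins, upstream sensors and IRFs, negative regulators and further interferon-stimulated genes. Over all genes tested in eWAT, 14.7% rose and 11.8% fell on HFD with GFP, and 9.47% and 7.93% with irisin. In iWAT 1.44% rose and 0.924% fell with GFP, and 4.82% and 4.19% with irisin. In eWAT with GFP, 5 of 9 tested receptor and JAK-STAT genes rose on HFD and none fell, led by Ifngr2 (log2 fold change 1.21), Il10rb (1.27) and the type I receptor chain Ifnar1 (0.76). With irisin in eWAT 3 of 9 rose (Ifngr2 0.85, Jak1 0.60, Il10rb 0.77), and in iWAT none of 9 was called with either vector. Of 16 upstream genes, 6 rose and 1 fell in eWAT with GFP, among them the endosomal RNA sensor Tlr7 (1.77), the kinase Tbk1 (0.71) and Irf8 (1.96), with the adaptor Mavs falling by 0.36. With irisin 5 rose in eWAT (Tlr7 1.58, Irf8 1.71, Tlr3 0.54), none of 16 was called in iWAT with GFP, and in iWAT with irisin only the adaptor Myd88 was called, and fell by 0.99. Of 7 tested negative regulators, Ptpn11 rose (0.72) and Socs3 fell (-2.03) in iWAT with irisin, and no call was made in the other diet comparisons.

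Of 48 further interferon-stimulated genes, 47 were in the table and tested, and the shares over all genes just given apply here too. In eWAT with GFP 11 rose and 5 fell: Slfn5 (0.77), Slfn2 (2.14) and Trim25 (1.51) led the rises and Isg20 (-1.16), Apol9b (-1.12) and Apol9a (-0.79) the falls. In eWAT with irisin 4 rose (Slfn5 0.59, Slfn9 0.88, Ifi30 1.74 first) and 7 fell (Apol9b -1.55, Cxcl10 -1.19, Apol9a -1.21 first). None was called in iWAT with GFP, and in iWAT with irisin none rose and 7 fell, led by Irgm2 (-1.20), Ifi211 (-2.15) and Slfn8 (-1.48). The median fold changes of the 47 genes were 0.27, -0.20, 0.11 and -0.61 in eWAT with GFP, eWAT with irisin, iWAT with GFP and iWAT with irisin.

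The sum of 10 macrophage markers also changed with diet, in the direction most members took in eWAT with GFP and in iWAT with irisin. In eWAT with irisin, where 32 of 42 members had negative fold changes, it went in the opposite direction. A second list, of 5 lipid-associated macrophage markers, went against most members in iWAT with irisin (625.5 to 750.3 FPKM on chow, 1162 to 1652 on HFD). In eWAT with GFP that list summed higher on HFD too (691 to 1423 on chow, 1519 to 2149 on HFD). Conventional dendritic markers summed lower on HFD in both. They went from 22.65 to 30.47 FPKM on chow to 7.08 to 13.2 in iWAT with irisin, and from 9.97 to 14.5 to 6.29 to 7.28 in eWAT with GFP. In eWAT with GFP the summed level of 10 macrophage markers was 754 to 1089 FPKM on chow and 2931 to 4208 on HFD, and 9 of the 10 rose; with irisin it was 587 to 696 on chow and 869 to 2936 on HFD, and 4 rose. In iWAT with irisin the sum was 847 to 1304 on chow and 181 to 513 on HFD, and 2 of 10 fell (Fcgr1 and Cd14). In iWAT with GFP it was 161 to 1049 on chow, with the low value in GFP chow 3, and 334 to 627 on HFD, and none was called. Over all genes tested 14.7% and 9.47% rose in eWAT with GFP and with irisin, and 4.19% fell in iWAT with irisin. None of the 10 macrophage markers was at 0 in any library. Markers of skeletal muscle also fell in iWAT with irisin (6 of 7 tested; 85.8 to 4117 FPKM on chow and 19.1 to 35.6 on HFD), and plasmacytoid dendritic markers summed to at most 10.7 FPKM in any library. In iWAT with irisin the summed adipocyte markers were at 5513 to 6758 FPKM on chow and 9364 to 12410 on HFD. In eWAT with GFP adipocyte markers were at 7306 to 9467 on chow and 4319 to 5058 on HFD. The part of these cell types in the members' changes was not tested.

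**Figure D5:**
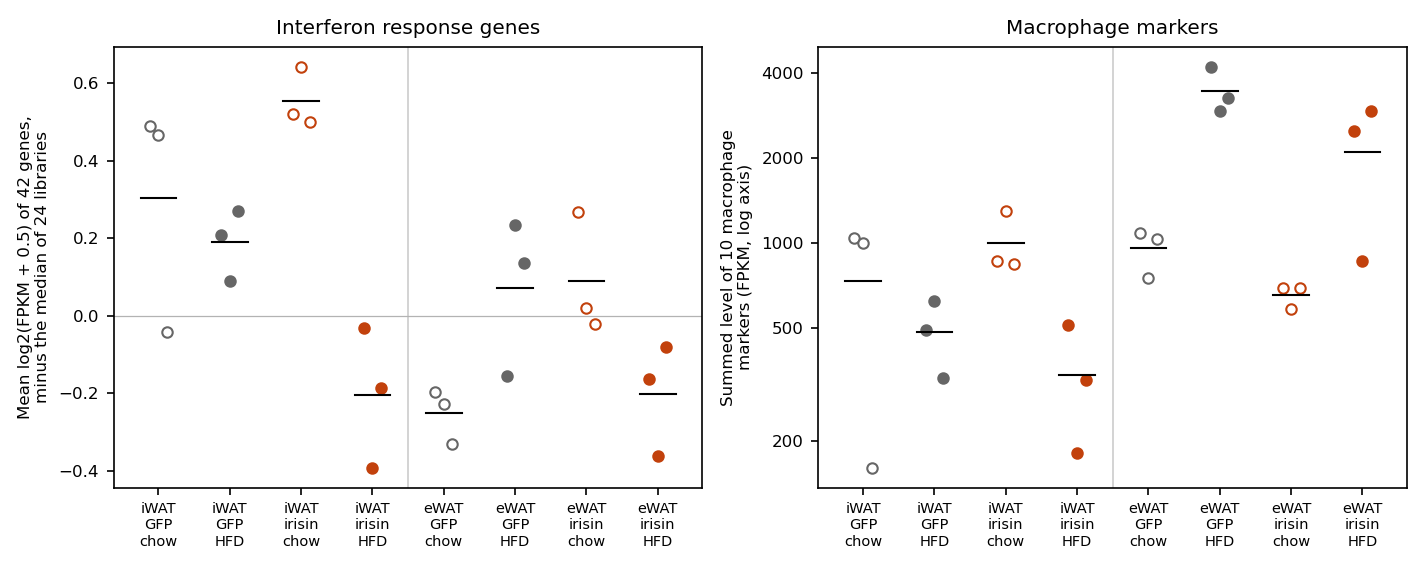
Left, the mean log2(FPKM + 0.5) of the 42 members in each library, minus the median of the 24 libraries; right, the summed FPKM of 10 macrophage markers on a log axis (points are libraries, open for chow and filled for HFD, grey for GFP and orange for irisin; bars are group means). In iWAT the members' mean is highest with irisin on chow (0.55) and lowest with irisin on HFD (-0.20), and in eWAT GFP on HFD has the highest macrophage sums.

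Irisin and GFP libraries of the same depot and diet were compared next, which asks what the irisin vector changed. With limma no member was called in any of the 4 comparisons, where 0% of all genes tested were called, and voom on recovered reads called 0 members too. Array weights called 9 members in eWAT on HFD and 4 in iWAT on chow, beside 13.6% and 13.9% of all genes. On HFD members were mostly lower with irisin: 34 of 42 fold changes were negative in eWAT (median -0.29) and 39 of 42 in iWAT (median -0.37). On chow they were mostly higher: 38 of 42 were positive in eWAT (median 0.35) and 36 of 42 in iWAT (median 0.23). Over all genes tested between 48.8% and 51.0% of fold changes were positive and the median was within 0.01 of 0. As members can move together within a library, these counts of signs are not separate results for each gene. The members' mean per library overlapped between vectors in eWAT on HFD and not in the other comparisons. The groups of these comparisons are the same ones the diet comparisons use, and a similar direction in iWAT was known before the members were chosen.

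At an unadjusted p under 0.05, 8 of 42 members passed in eWAT on HFD, beside 9.28% of all genes, and 12 in eWAT on chow, beside 5.19%. In iWAT 9 passed on HFD, beside 2.67%, and 3 on chow, beside 4.27%. On HFD in eWAT, Parp14 was at 6.71 ± 1.30 FPKM with irisin and 9.08 ± 0.835 with GFP (-0.42 ± 0.14, adjusted p = 0.533), and Rsad2 at 3.70 ± 0.918 and 6.17 ± 1.605 (-0.66 ± 0.23, adjusted p = 0.533). On chow in eWAT, Rsad2 was at 4.27 ± 0.892 FPKM with irisin and 1.94 ± 0.437 with GFP (0.97 ± 0.23, adjusted p = 0.696), and Samd9l at 5.18 ± 0.554 and 7.95 ± 1.54 (-0.56 ± 0.17, adjusted p = 0.939). For iWAT on HFD the smallest p belonged to Oas3 (-0.91 ± 0.29, adjusted p = 0.946) and Mx1 (-1.31 ± 0.42, adjusted p = 0.946), and on chow to Dhx58 (0.51 ± 0.17, adjusted p = 0.919) and Igtp (0.63 ± 0.25, adjusted p = 0.919). The irisin and GFP groups did not overlap for Oas3, Dhx58, Igtp, Samd9l, Parp14 or, on chow, Rsad2. These genes were picked by smallest p and none was called, so the lack of overlap says little. The share of all genes without overlap is not given here. Without GFP chow 3, the library of iWAT low in macrophage transcripts, the median on chow in iWAT was 0.03.

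Whether the diet effect differed between vectors was tested as an interaction, irisin minus GFP. In eWAT 40 of 42 values were negative (median -0.65), and in iWAT 40 of 42 (median -0.66). Over all genes 47.6% and 48.8% of values were positive. Here too the members can move together, so the signs are not separate results for each gene. No member was called with limma in either depot, where 0.00614% (1 gene) and 0% of all genes were called, voom called none, and array weights called 1 in eWAT, beside 0.117% of all genes. At an unadjusted p under 0.05 there were 19 members in eWAT, beside 4.04% of all genes, and 13 in iWAT, beside 6.18%. The smallest p in eWAT belonged to Rsad2 (-1.62 ± 0.32, adjusted p = 0.703) and Irf7 (-0.92 ± 0.24, adjusted p = 0.908), and in iWAT to Dhx58 (-1.001 ± 0.25, adjusted p = 0.688) and Oas3 (-1.504 ± 0.40, adjusted p = 0.688). The difference between vectors in the diet effect, seen in the counts of calls, was thus not itself past the threshold for any member. Without iWAT GFP chow 3 the median in iWAT was -0.47.

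The depots were compared within each vector and diet, eWAT against iWAT. With GFP on chow 6 were lower and none higher, beside 1.5% and 3.13% of all genes, and 40 of 42 fold changes were negative (median -0.49). With irisin on chow 3 were lower and none higher, beside 1.93% and 2.4%, and 38 of 42 were negative (median -0.37). Irf7 was lower in eWAT in all 4 comparisons, by -1.504 ± 0.16 with GFP on chow (limma adjusted p = 4.44e-06), -0.60 ± 0.16 with GFP on HFD (adjusted p = 0.0151), -0.86 ± 0.16 with irisin on chow (adjusted p = 0.00223) and -0.81 ± 0.16 with irisin on HFD (adjusted p = 0.00398).

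With GFP on chow Usp18 (-1.32 ± 0.26, adjusted p = 0.00432), Rsad2 (-0.84 ± 0.20, adjusted p = 0.0163), Bst2 (-0.60 ± 0.15, adjusted p = 0.0192) and Rtp4 (-1.21 ± 0.32, adjusted p = 0.0319) were also lower in eWAT, and Dtx3l was called as well. The count of 6 was 3 without eWAT GFP chow 2 or iWAT GFP chow 2, 2 without eWAT GFP chow 3 or iWAT GFP chow 1, and 10 without iWAT GFP chow 3. With irisin on chow Oas3 (-1.18 ± 0.27, adjusted p = 0.0140) and Dhx58 (-0.88 ± 0.22, adjusted p = 0.0217) were lower, and the count of 3 was 1 without eWAT irisin chow 3, 5 without eWAT irisin HFD 3 or iWAT GFP HFD 1, 6 without eWAT irisin HFD 2 and 7 without iWAT GFP chow 3.

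On HFD 2 OAS genes were higher in eWAT, and Irf7 was lower, but the shares of members called were near or under those over all genes. Of the members, 4.76% were higher with either vector, and 7.14% and 4.76% were lower with GFP and with irisin. With GFP 2 members were higher and 3 lower, beside 9.68% and 5.56% of all genes: Oas1a (1.23 ± 0.36, adjusted p = 0.0265) and Oasl2 (0.85 ± 0.26, adjusted p = 0.0319) were higher, and Gbp3 (-0.63 ± 0.16, adjusted p = 0.0137), Irf7 and Usp18 (-0.99 ± 0.26, adjusted p = 0.0157) lower. With irisin 2 were higher and 2 lower, beside 6.75% and 3.54%: Oasl2 (0.89 ± 0.26, adjusted p = 0.0340) and Oas1a (1.15 ± 0.36, adjusted p = 0.0494) were higher, and Irf7 and the nucleotide kinase Cmpk2 (-0.65 ± 0.20, adjusted p = 0.0420) lower. The Oas1a libraries of the 2 depots overlapped with irisin. Without the 4 libraries rich in other tissues the counts were 3 with GFP and 2 with irisin on HFD, and 4 and 2 on chow. Without 1 library the count of 5 with GFP was 1 (eWAT GFP HFD 1 or iWAT GFP HFD 3), 3 (eWAT GFP HFD 3) or 8 (iWAT GFP HFD 1). That of 4 with irisin was 1 (eWAT irisin HFD 1 or 3, iWAT irisin HFD 2 or 3) or 2 (any eWAT irisin chow library, iWAT irisin chow 1 or 3, or iWAT GFP chow 2).

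The diet effect itself differed between depots for 6 members. With GFP 4 had a more positive diet effect in eWAT than in iWAT and none a more negative one, beside 2.98% and 1.33% of all genes: Bst2 (0.93 ± 0.21, adjusted p = 0.0160), Oas1a (2.18 ± 0.51, adjusted p = 0.0207), Irf7 (0.91 ± 0.22, adjusted p = 0.0265) and Oasl1 (2.04 ± 0.56, adjusted p = 0.0446). With irisin there were likewise 4 and none, beside 2.71% and 1.02%: Oas1a (2.22 ± 0.51, adjusted p = 0.0276), Oas3 (1.59 ± 0.39, adjusted p = 0.0324), Oasl1 (2.24 ± 0.56, adjusted p = 0.0352) and Dhx58 (1.21 ± 0.31, adjusted p = 0.0364). Median differences over the 42 were 0.33 and 0.32, with 30 positive in either case. Macrophage markers differed in the same direction (4 of 10 called with GFP and 7 of 10 with irisin, none in the other direction), and their part in these values was not tested.

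The counts of these depot differences moved as libraries were left out. The share of all genes called in those fits is not given here, so losses may not be particular to the members. Without the 4 libraries rich in other tissues no member was called with either vector. With GFP the count of 4 was 1 without eWAT GFP HFD 1, eWAT GFP chow 3, iWAT GFP chow 1 or iWAT GFP chow 2, 2 without eWAT GFP HFD 3, iWAT GFP HFD 2 or iWAT GFP HFD 3, and 8 without iWAT GFP chow 3. With irisin it was 0 without any 1 of the 3 eWAT irisin chow libraries, eWAT irisin HFD 1 or 3, iWAT irisin HFD 2 or 3, or iWAT irisin chow 2 or 3, 2 without iWAT irisin chow 1, and 8 without eWAT irisin HFD 2 or iWAT GFP chow 3.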

How the data were processed

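The table of 24 libraries holds FPKM values that the authors deposited; per the submitters' processing notes HISAT2 2.0.5 did the alignment and featureCounts 1.5.0-p3 the counting. The sources used here give neither genome build nor strand setting; the positions of all 42 members equal those of GENCODE M21 (GRCm38). Polyadenylated RNA was used, per the labels' protocols. Another 8 columns hold group means and were not used. FPKM steps gave whole reads for 100% of values at a tolerance of 0.01.

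A gene was tested if 3 or more of the fitted libraries reached 0.5 FPKM (16274 in eWAT, 16125 in iWAT, 17687 over both), and log2(FPKM + 0.5) was fitted with limma 3.58.1 (trended moderation; R 4.3.3). Each depot's 4 groups shared a fit, and depot comparisons used all 8 groups. Adjustment was by Benjamini-Hochberg over the genes tested in a comparison, and 16 comparisons were made. With 3 against 3 libraries an exact permutation p cannot fall under 0.1. The fit was tested on simulated data.

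The members, lists, roles and comparisons were chosen with earlier results of these data known. Levels in every library are given for 1 to 3 genes of each role named beforehand (Oas2, Oasl1 and Dhx58 were added after their values were seen), and fold changes for up to 5 called members per direction with the smallest adjusted p, or, with no call, for the 2 of lowest p. Alternatives were pseudocounts of 1 and 0.1, no filter, a filter of 1 FPKM, quantile scaling, upper quartile scaling, the replicate block, only the groups compared, voom on recovered reads, array weights and leaving out each library; leaving out 4 libraries together was added after seeing the data. Replicate numbers are in the labels, but same-numbered libraries of the 2 depots had correlated deviations (r above 0.1) in 2 of 12 pairs, those of the groups within eWAT in 2 of 18 and within iWAT in 9 of 18, and as not every pair did, they were not treated as pairs. Shared sequence was counted as 50-base windows of a member's longest transcript that also occur in transcripts of another gene. Promoters came from RefSeq (GRCm38.p6). The figures used Python 3.11.15 and matplotlib 3.10.9.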

Additional observations from a re-analysis of the deposited data

Results flagged for a closer look

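The diet effect differed between depots (eWAT minus iWAT, a tested difference, limma) for 4 members with each vector. All 4 were more positive in eWAT, as were 2.98% of all genes with GFP and 2.71% with irisin. With GFP the differences were 2.18 for Oas1a, 2.04 for Oasl1, 0.93 for Bst2 and 0.91 for Irf7, on the log2 scale. With irisin they were 2.24 for Oasl1, 2.22 for Oas1a, 1.59 for Oas3 and 1.21 for Dhx58. Oas1a and Oasl1 appear with both vectors. None of these calls was kept without the 4 libraries rich in other tissues. Without 1 library the counts ran from 1 to 8 with GFP and from 0 to 8 with irisin. Oas1a shares 57.6% of its 50-base windows with other genes, and Oas3 had group means of at most 1.31 FPKM.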

How the results depend on the processing

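None of the 56 member fold changes given with an adjusted p changed sign under any alternative. They were picked by smallest p, so a kept sign says little. A call was lost in 155 of 972 refits without 1 library. It was lost in 16 of 51 with only the groups compared, 16 of 56 without a filter and 19 of 56 without the 4 libraries. Other alternatives lost at most 4 of 56, and array weights added 5. Fold changes not called in the main fit had no call to lose but are in these totals, so the shares understate the loss. Some of the 972 refits left out a library outside the groups compared. Of 438 recomputed medians, 429 moved by less than the spread between libraries. The median of iWAT with GFP (HFD against chow), -0.04, turned to 0.03 without GFP HFD 2, 0.02 without GFP chow 1 and 0.03 without GFP chow 2. That of irisin on HFD between depots, -0.07, turned to 0.02 without iWAT irisin HFD 1. Array weights, which give less weight to libraries far from their group, raised the number of members called to 27 in eWAT with irisin, 11 in iWAT with GFP and 26 in iWAT with irisin (HFD against chow; 60.3%, 24.2% and 46.6% of all genes), to 9 in eWAT on HFD and 4 in iWAT on chow (irisin against GFP; 13.6% and 13.9%), and to 1 for the vector by diet interaction in eWAT (0.117%). With them the depot comparisons called 24 (GFP chow; 11.2% of all genes), 12 (GFP HFD; 33.1%), 18 (irisin chow; 17.3%) and 9 (irisin HFD; 27.8%), and the depot by diet interactions 16 (GFP; 24.3%) and 17 (irisin; 25%). Without a filter the counts were 3 in eWAT with irisin, 1 in iWAT with GFP and 8 in iWAT with irisin (6.31%, 0.515% and 2.86% of all genes). For the depot comparisons on HFD they were 3 with GFP and 1 with irisin (7.2% and 3.9%). For the depot by diet interaction with irisin the count was 0 (0.754%). A fit of only the groups compared called 0 in iWAT with GFP, where 0% of all genes were called. For the depot comparisons it called 1, 10 and 0 with GFP chow, irisin chow and irisin HFD (2.54%, 10.8% and 0.191%). It called 2 for the depot by diet interaction with irisin (3.41%), as did voom (2.07%). For irisin on chow between depots, a pseudocount of 1 called 6 and the replicate block 6 (4.32% and 3.65% of all genes). Quantile and upper quartile scaling called 5 each there (4.51% and 4.36%). The replicate block moved no other count by over 1.5 times. Without the 4 libraries rich in other tissues the counts were 5 (eWAT with GFP, HFD against chow), 3 and 2 (depots on HFD with GFP and with irisin), and 0 for both depot by diet interactions. The cause of these shifts was not tested.

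Leaving out 1 library at a time, counts for HFD against chow were 7 to 11 in eWAT with GFP, 3 to 9 in eWAT with irisin, 0 to 4 in iWAT with GFP and 2 to 18 in iWAT with irisin. The 4 vector comparisons and both vector by diet interactions stayed at 0. Depot comparisons ranged from 2 to 10 (GFP chow), 1 to 8 (GFP HFD), 1 to 7 (irisin chow) and 1 to 6 (irisin HFD). The depot by diet interactions ranged from 1 to 8 (GFP) and 0 to 8 (irisin). Shares of all genes called in fits with libraries left out are not given, so these shifts may not be particular to the members.

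The 9 medians that moved were, with array weights, -0.27 (iWAT GFP, diet), 0.06 (iWAT chow, vector), -0.42 (iWAT, vector by diet) and 0.64 (GFP, depot by diet). The median of iWAT with irisin was -0.88 with a pseudocount of 0.1, -0.88 with voom and -0.81 without irisin HFD 1. Without iWAT GFP chow 3 it was 0.03 for irisin against GFP on chow in iWAT and -0.47 for the vector by diet interaction there. Members under 1 FPKM, such as Oas3, rest on few reads in a library, which limits how far their changes can be resolved.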
